A study of Mus musculus with 12 samples.

Results

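The m6A reader genes encode proteins that bind N6-methyladenosine (m6A) in RNA or were proposed to do so, and their own mRNAs were examined here for m6A peaks. The 10 genes were Ythdf1, Ythdf2, Ythdf3, Ythdc1, Ythdc2, Fmr1, Prrc2a, Igf2bp2, Elavl1 and Hnrnpa2b1. They were chosen by symbol, and all 10 were named by at least 1 of 6 mRNA peak lists that together named 10030 genes. They held 94 of the 83673 listed mRNA peaks. The cells were of the C17.2 line, neural stem cells (NSC) of mouse cerebellum that were made immortal, labelled as wild type. Control cultures were compared with cultures after hypoxia/reoxygenation (H/R), in which cells were kept at 5% O2 for 12 h and then in standard oxygen for 48 h. RNA fragments precipitated with an antibody against m6A (the IP) were sequenced beside unselected input RNA, a method termed MeRIP-seq. The labels gave 12 samples in 4 groups of 3, the IP and the input of the control and of the H/R group, and each peak list stood for an IP against its input. The libraries are called A, B and C in each group, and these letters were not tied to the labels' replicate numbers. Values for a group are given in the order of these letters.

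Most m6A in mRNA is placed by a nuclear methyltransferase complex at the consensus DRACH, where D stands for any base but C, R for a purine and H for any base but G. Reader proteins then act on the marked transcript. The YTH domain holds the methylated base in a pocket, cytoplasmic YTHDF proteins are best known for speeding up the decay of bound mRNAs, and YTHDC1 acts in the nucleus on splicing and export. FMRP (encoded by Fmr1), PRRC2A, IGF2BP2, HuR (encoded by Elavl1) and hnRNP A2/B1 lack a YTH domain and bind RNA by other means. A peak in a reader gene is a call of antibody enrichment on that gene's mRNA, and says nothing of what the protein binds.

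The mRNA lists held 7863 to 12180 peaks in the control libraries and 13954 to 22038 in the H/R libraries. The lists give for each peak a p score, which is 10 times the -log10 of the p-value from the peak caller MACS, and a fold enrichment of the IP over the background that MACS estimated. The median fold enrichment was 21.8, 33.9 and 28.0 for control and 9.34, 15.5 and 10.05 for H/R, so a fold is also given below relative to the median of its own list. The p score piled up at 3100, the value of 4.86% to 14.6% of the peaks of a list, and peaks at that score have no order. The lists give no read numbers, so the depth behind a peak is unknown. Of 8 neural stem cell markers, 3 to 4 carried a peak in the control lists and 4 to 5 in the H/R lists, while Vim, Pax6 and Fabp7 had none, and a peak list does not give expression. Of markers of other cell types, 2 of 5 neuronal, 1 of 4 astrocyte, 1 of 4 oligodendrocyte and 2 of 3 fibroblast genes had a peak in at least 1 list, and none of 4 microglia and leukocyte or 3 endothelial genes did. The fibroblast marker Pdgfra was the only one of these with more peaks in every H/R list than in every control list, as had 14.8% of all genes. The astrocyte gene with a peak, Gfap, was listed in control B and C and in no H/R list. The part of other cell types in the results below was not tested. In bulk RNA, a change in how many cells carry a marked transcript, in the level of that transcript and in its methylation cannot be told apart from a peak list.

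The listed intervals followed exons. In the RefSeq models, 18 of the 26 merged reader gene regions were exactly 1 whole exon, and over all genes 64.5% to 77.8% of the peaks of a list were a whole exon of the listed transcript. A region here joins peaks of the 6 lists that overlap by at least 1 bp. The paralogs Ythdf1, Ythdf2 and Ythdf3 shared the clearest such exon. Their long coding exon of 1521, 1584 and 1599 bases, which encodes most of each protein, was listed whole in all 6 lists for each gene. Aligned by MAFFT, these exons were 67.4% (Ythdf1 and Ythdf2), 68.6% (Ythdf1 and Ythdf3) and 68.9% (Ythdf2 and Ythdf3) identical. They held 34, 36 and 38 DRACH sites on the transcript strand, and 7 sites lay at the same aligned base in all 3 genes.

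The 3 shared sites with the most identical bases around them are shown because they lie in the interval listed in every library for every YTHDF paralog. Sequences are from the RefSeq copy of the mouse genome (build GRCm38, the same as mm10), read 5′ to 3′ on the transcript strand, with DRACH in capitals. The first set was identical at 20 of 25 aligned bases. It lies on the minus strand at chr2:180911599-180911623 in exon 4 of Ythdf1, on the minus strand at chr4:132205092-132205116 in exon 4 of Ythdf2 and on the plus strand at chr3:16204419-16204443 in exon 5 of Ythdf3.
Ythdf1: caagcctgcaAAACCacagcctaag
Ythdf2: caagcctgcaAAACAacagcctaaa
Ythdf3: aaagcctgcaAAACCtcagccgaaa
The second set was identical at 19 of 25 bases and holds GGAC, the form of the consensus most often methylated. It lies at chr2:180910996-180911020 (minus), chr4:132204441-132204465 (minus) and chr3:16205091-16205115 (plus).
Ythdf1: caatgggagtGGACAtttctgtggg
Ythdf2: caacggcagtGGACActtctgtgga
Ythdf3: gaatggcagtGGACAtttttgtgga
The next set, also with GGAC, was identical at 17 of 25 bases and starts its DRACH site at base 136 of the exon in each gene. It lies at chr2:180912058-180912082 (minus), chr4:132205566-132205590 (minus) and chr3:16203951-16203975 (plus).
Ythdf1: cactacctatGGACAacttagtaat
Ythdf2: aacttcttatGGACAactgagcaac
Ythdf3: gacaacctatGGACAaatgagtaat
The lists do not resolve single bases, so no site within the exon can be named as the methylated one.

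A first question was whether reader genes were marked in more libraries after H/R. Ythdf1, Ythdf2, Ythdf3, Ythdc1 and Fmr1 were called in all 6 lists, where called means at least 1 listed mRNA peak. That was 5 of 10 reader genes, against 39.5% of all genes, and 2 of 10 were called in exactly 1 list, against 19.8% of all genes. The control lists called 7, 6 and 6 reader genes and the H/R lists 7, 7 and 9. Mean numbers were 6.33 ± 0.577 for control and 7.67 ± 1.15 for H/R (SD, n = 3 each), and the groups touched at 7. Over all genes the called share was 64.5%, 51.9% and 46.9% in the control lists and 80.9%, 66.2% and 89.1% in the H/R lists, so the called share of reader genes lay above that of all genes in 5 lists and below it in H/R A. With all lists held to the 7863 peaks of the shortest, the 6 libraries called 7, 6, 6, 7, 7 and 6 reader genes. No reader gene was called in all H/R lists and no control list (4.96% of all genes were), and none in all control lists and no H/R list (0.0698% of all genes). This call turned on single control libraries. Without control A, Igf2bp2 was called in all H/R lists and no control list. Without control B, the same held for Prrc2a, and Hnrnpa2b1 was called in both remaining control lists but never in an H/R list.

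**Figure D1:**
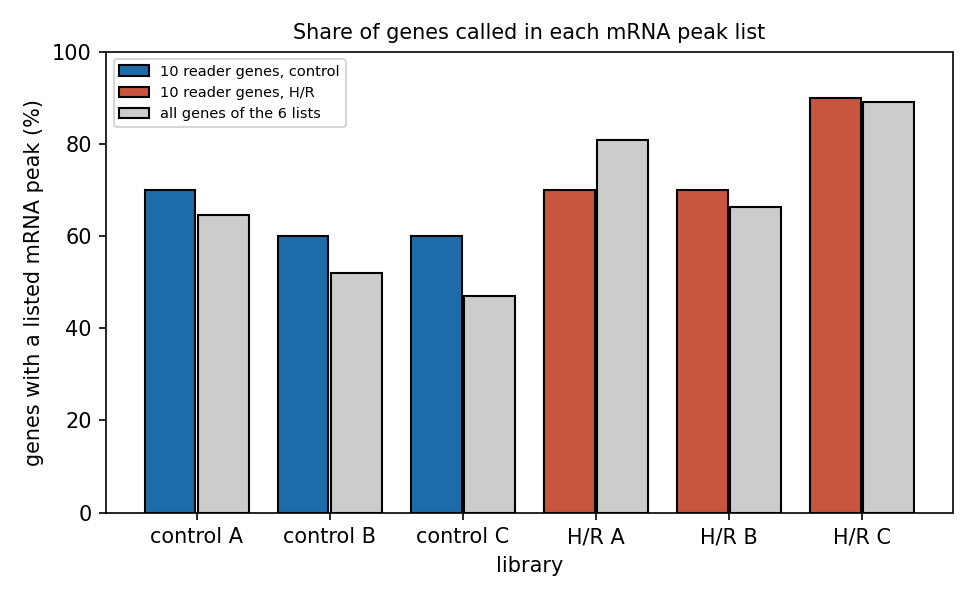
The bars give the percentage of genes with a listed mRNA peak in each library, coloured for the 10 reader genes (blue for control, red for H/R) and grey for the 10030 genes of the 6 lists. The grey bars run from 46.9% to 89.1%, while the reader gene bars stay between 60% and 90%.

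The reader genes held 15, 12 and 11 peaks in the control lists and 18, 17 and 21 in the H/R lists, or 12.7 ± 2.08 and 18.7 ± 2.08 (SD, n = 3 each). With lists of equal length the numbers were 12, 11 and 11 for control and 13, 13 and 12 for H/R. No single reader gene had more peaks in every H/R list than in every control list (14.8% of all genes did), and none had fewer (0.12% of all genes). The same was true of the bases under peaks (16.3% of all genes higher and 1.09% lower). The exact permutation p per reader gene, 2-sided, ran from 0.2 to 1 for the number of peaks, where 0.1 is the smallest that 3 against 3 libraries allow, and with Benjamini-Hochberg adjustment over all 10030 genes the lowest value of any gene was 0.669. This test could therefore call no gene.

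**Figure D2:**
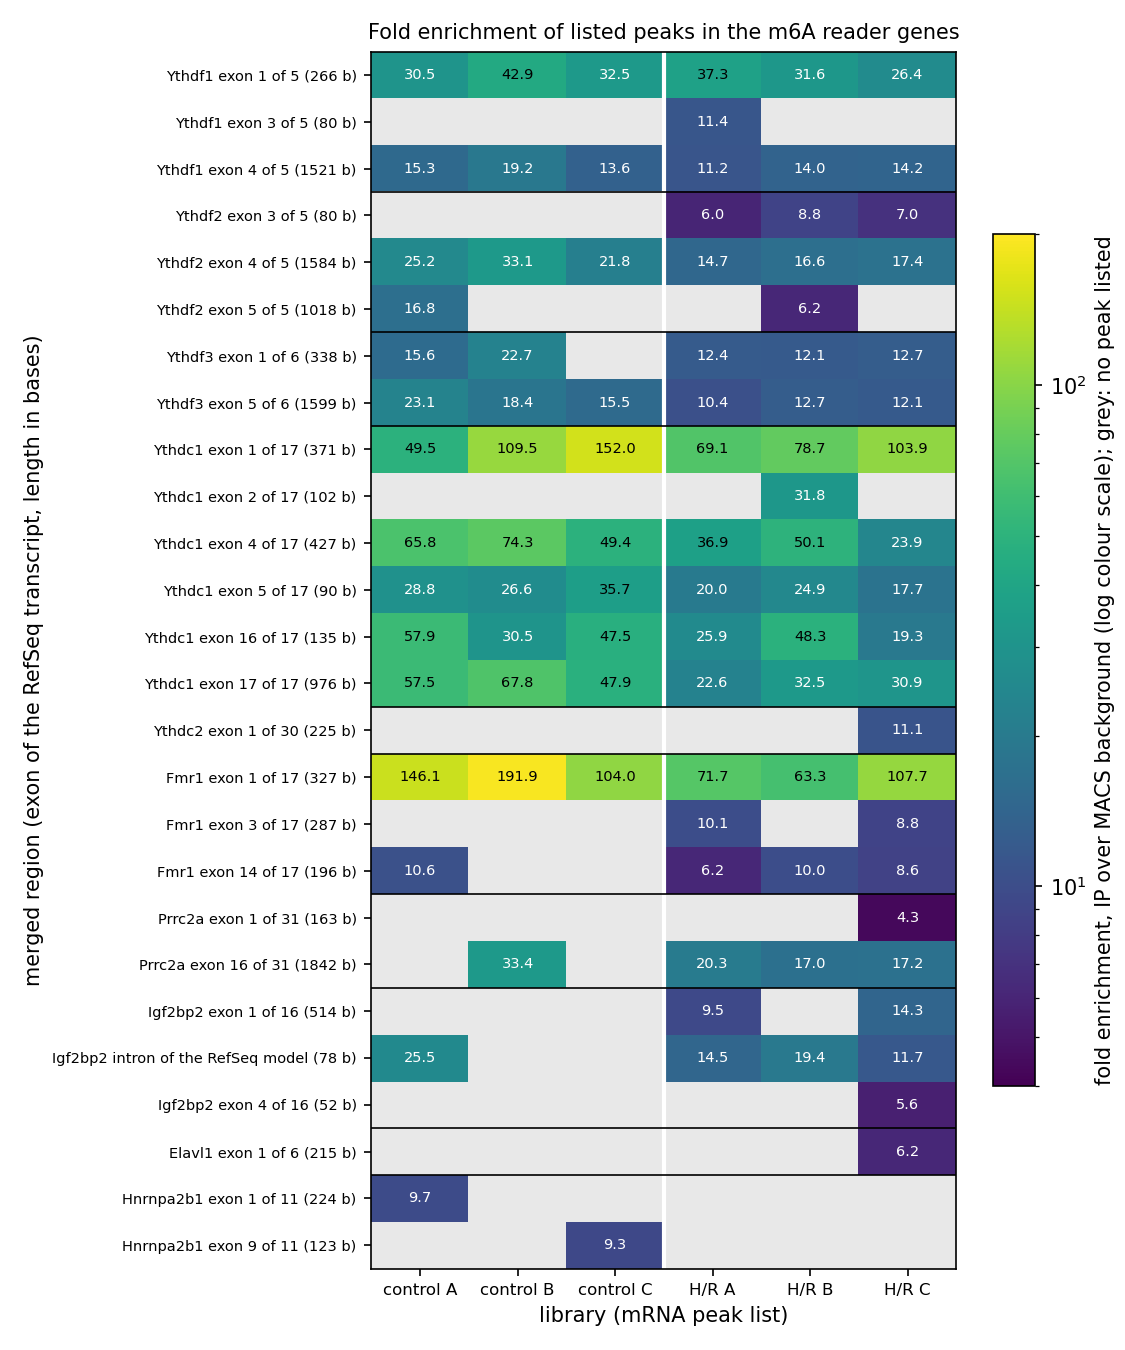
Rows are the 26 merged regions of the reader genes, ordered 5′ to 3′ within each gene, columns are the 6 libraries, and the number and colour give the fold enrichment (log colour scale), with grey where no peak was listed. Filled rows run through all 6 columns for 10 regions in Ythdf1, Ythdf2, Ythdf3, Ythdc1 and Fmr1, and exon 3 of Ythdf2 is filled in the H/R columns only.

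Of the YTHDF genes, Ythdf1 held 2 peaks in each list except H/R A, where it held 3. Its long coding exon (exon 4 of 5, chr2:180910687-180912207) had a fold enrichment of 15.3, 19.2 and 13.6 in the control libraries and 11.2, 13.96 and 14.2 in the H/R libraries, and the groups overlapped. In Ythdf2, best known for recruiting the CCR4-NOT deadenylase to marked mRNAs, the long coding exon (exon 4 of 5, chr4:132204132-132205715) stood at 25.2, 33.1 and 21.8 in the control libraries and 14.7, 16.6 and 17.4 in the H/R libraries. In Ythdf3 the exon (exon 5 of 6, chr3:16203826-16205424) stood at 23.1, 18.4 and 15.5 and at 10.4, 12.7 and 12.1. Every H/R value lay below every control value in Ythdf2 and Ythdf3. The group means were 26.7 ± 5.80 and 16.3 ± 1.36 for Ythdf2 and 19.0 ± 3.81 and 11.7 ± 1.22 for Ythdf3 (SD, n = 3 each). Both differences had an exact permutation p of 0.1, which became 0.187 when adjusted over the 3966 genes called in all lists. The fold of the strongest peak (the one of highest p score) was lower in every H/R list for 53% of those 3966 genes and higher for 0.353%, so a lower fold was common to most genes. No reader gene had a higher one on this scale, but over the list median the strongest peak was higher in every H/R library for Ythdf1 and Ythdc1. No share over all genes is given for this measure. Of the regions listed in every library, 31.8% were higher in every H/R library over the list median. Leaving out control B or H/R A made the strongest peak higher for Ythdc1 without division by the median. For Ythdc1 this set different exons against each other, exon 4 in the control lists and exon 1 in the H/R lists. In the H/R lists both exons had a p score of 3100, and the one of higher fold was taken. Neither exon by itself was higher in every H/R library, with or without the division. Relative to the median fold of its list, the Ythdf2 exon stood at 1.16, 0.98 and 0.78 and at 1.58, 1.07 and 1.73, and the groups overlapped. The corresponding values of Ythdf3 were 1.06, 0.54 and 0.56 and 1.11, 0.82 and 1.20, again overlapping. The p score of these exons was between 458 and 3143 in the control lists and at the pile-up value of 3100 in all H/R lists.

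The first exon of Ythdf1, which holds the start codon, was listed in all 6 lists as 266 bases (chr2:180920684-180920949). Its fold enrichment was 30.5, 42.9 and 32.5 in the control libraries and 37.3, 31.6 and 26.4 in the H/R libraries. That was above the fold of the Ythdf1 long exon in every library. Relative to the list median the values were 1.40, 1.27 and 1.16 and then 3.99, 2.04 and 2.63, with every H/R value above every control value (exact permutation p = 0.1, the smallest possible). The first exon of Ythdf3 (338 bases, chr3:16183183-16183520) was listed in 5 lists, all but control C, at a fold of 12.1 to 22.7. The first exon of Ythdf2 appeared in no mRNA list. The lncRNA lists of the same libraries named it instead, as a 674-base interval (chr4:132211432-132212105) that covers part of exon 1, the first intron and exon 2, under a GENCODE transcript of the retained intron class. This interval had a fold enrichment of 29.5 and 47.2 in control A and B, was not listed in control C, and stood at 16.5, 31.1 and 34.5 in the H/R libraries. The last exon of Ythdf2 was listed in part, with the stop codon and 3′UTR, in control A (fold 16.8) and H/R B (6.22). Counted over both kinds of list, each YTHDF gene thus had a peak on the first exon and on the long coding exon, and control C was the library without the first-exon peak for Ythdf2 and Ythdf3.

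**Figure D3:**
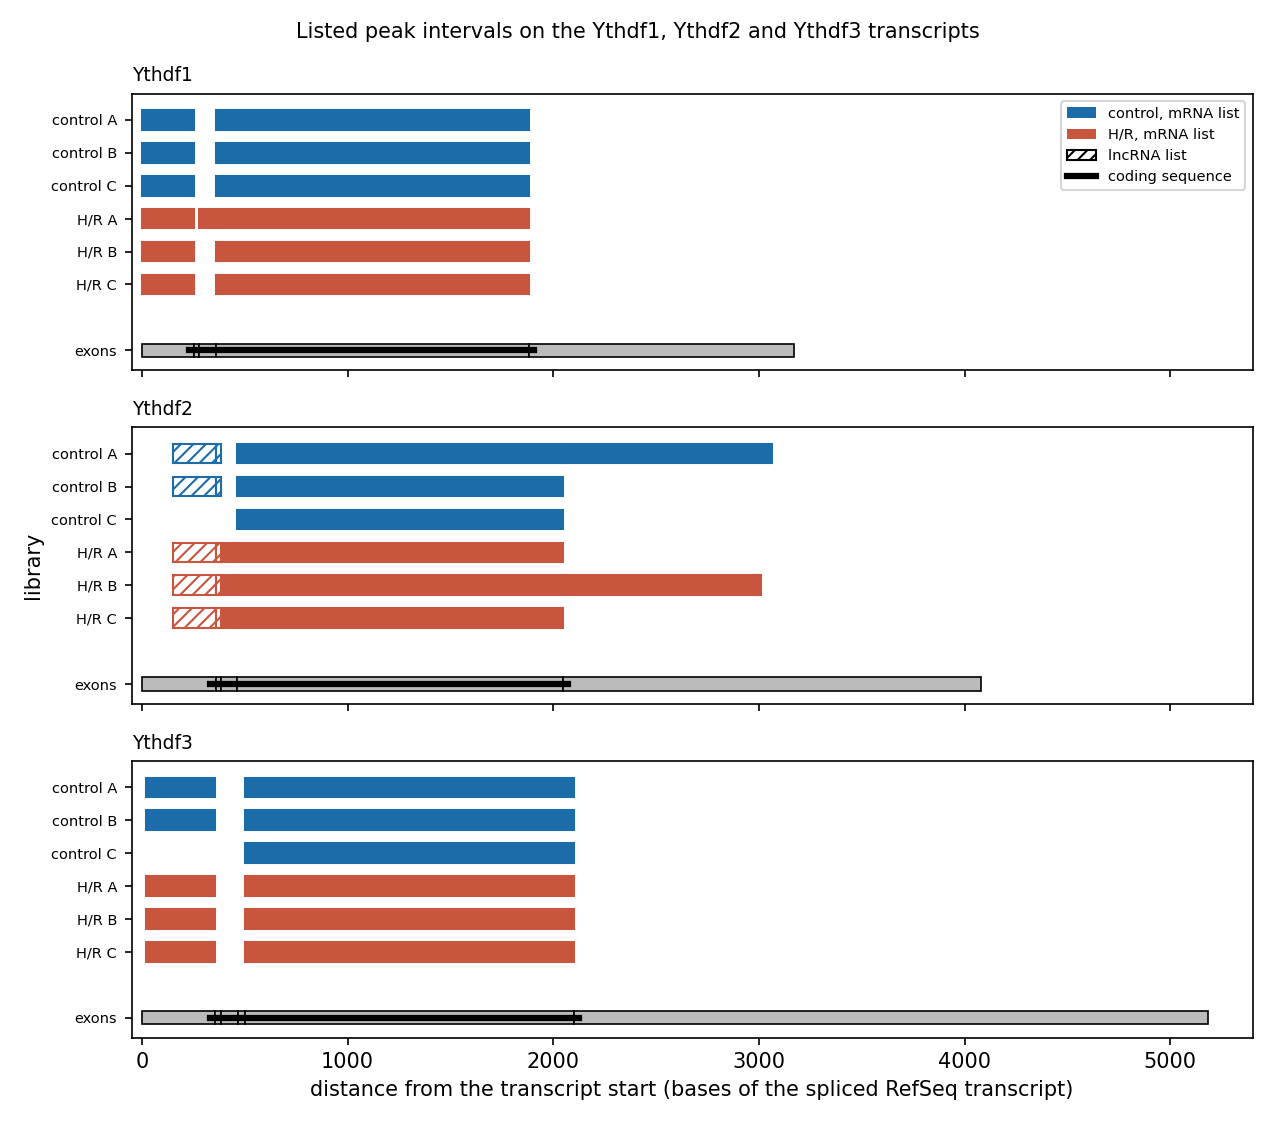
Bars show the listed intervals of each library (blue for control, red for H/R, hatched for lncRNA lists) along the spliced RefSeq transcripts of Ythdf1, Ythdf2 and Ythdf3, as the distance in bases from the transcript start, with exons in grey and the coding sequence as a black line. The long coding exon is filled in all 6 libraries of each gene, and the last exon carries an interval only in Ythdf2, in control A and H/R B.

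Exon 3 of Ythdf2 was the only reader gene region listed in all H/R libraries and in no control library, against 6.21% of all 27079 regions, and no reader gene region showed the reverse (0.0628% of all regions). This coding exon of 80 bases (chr4:132210752-132210831) had fold enrichments of 6, 8.8 and 6.97 and p scores of 103, 98.2 and 161 in the H/R libraries. These folds were at or below percentile 25.2 of each list, and with lists of equal length no region met this rule. The count of such regions became 3 without control A (with Fmr1 exon 14 and the 78-base Igf2bp2 interval), 2 without control B (with Prrc2a exon 16) and 3 without H/R B (with Fmr1 exon 3 and Igf2bp2 exon 1). The matching exon of Ythdf1 (chr2:180919135-180919214) was listed in H/R A alone, at a fold of 11.4. That of Ythdf3 (86 bases, chr3:16189478-16189563) had no peak. The 3 exons were 71.3% to 76.3% identical and are shown whole, since 1 of the 3 carried the difference between groups. DRACH sites, in capitals, numbered 3, 2 and 1. An 80-base interval with at least 1 DRACH site is common, as 84.3% of all regions of similar length held one.
Ythdf1: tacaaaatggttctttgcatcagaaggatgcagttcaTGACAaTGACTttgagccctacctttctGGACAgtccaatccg
Ythdf2: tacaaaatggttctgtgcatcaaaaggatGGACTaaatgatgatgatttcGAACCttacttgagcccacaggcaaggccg
Ythdf3: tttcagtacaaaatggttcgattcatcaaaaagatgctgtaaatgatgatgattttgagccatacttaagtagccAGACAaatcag

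Ythdc1, the nuclear YTH protein, held the most peaks of any reader gene, 31 over the 6 lists against a median of 6 over all genes. It had 5 peaks in each list except H/R B, which had 6. Only 335 of the 10030 genes (3.34%) held as many or more. The same 5 exons were listed in all 6 libraries. Exon 1 of 17 (371 bases, chr5:86804221-86804591) had folds of 49.5, 110 and 152 under control conditions and 69.1, 78.7 and 104 after H/R, the highest of the gene in each library except control A. These values stood between percentiles 87.9 and 99.6 of their lists, and the groups overlapped. Exon 4, a coding exon of 427 bases (chr5:86816907-86817333), stood at 65.8, 74.3 and 49.4 and at 36.9, 50.1 and 23.9. Its groups overlapped at H/R B, and its p score was 3100 or more in all 6 lists.

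Further 3′ in Ythdc1, exon 5 (90 bases, chr5:86820086-86820175) had folds of 28.8, 26.6 and 35.7 in the control libraries and 20.0, 24.9 and 17.7 in the H/R libraries. Exon 16 (135 bases, chr5:86833508-86833642) had 57.9, 30.5 and 47.5 and then 25.9, 48.3 and 19.3. The last exon, which holds the stop codon and the 3′UTR (976 bases, chr5:86835684-86836659), had 57.5, 67.8 and 47.9 and then 22.6, 32.5 and 30.9. For exon 5 and the last exon every H/R value was below every control value (exact permutation p = 0.1 each), while exon 16 overlapped. Relative to the list median, exon 5 went the other way. It stood at 1.32, 0.79 and 1.27 in the control libraries and at 2.14, 1.60 and 1.76 in the H/R libraries, without overlap, and the last exon overlapped. The p score of exons 1, 5, 16 and 17 was higher in every H/R list than in every control list, as for 53.1% of all regions listed in every library. For exons 1, 16 and 17 all H/R scores stood at the pile-up value of 3100. Exon 2, next to the exon with the start codon, was listed in H/R B alone (fold 31.8).

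Exons 5 and 16 of Ythdc1 are shown whole because they are the shortest regions that all 6 libraries listed. Exon 5 holds no DRACH site, unlike 86.6% of the regions of similar length. Exon 16 holds 2, in capitals. A 25-base window at the DRACH site nearest the middle of exon 4 (chr5:86817191-86817215, plus strand) is shown beside them, 1 of 8 such sites in that exon.
Ythdc1 exon 5: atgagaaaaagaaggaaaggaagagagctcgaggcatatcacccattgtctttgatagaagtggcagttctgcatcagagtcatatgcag
Ythdc1 exon 16: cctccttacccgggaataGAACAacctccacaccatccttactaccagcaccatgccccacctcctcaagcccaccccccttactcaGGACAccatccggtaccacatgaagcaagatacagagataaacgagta
Ythdc1 exon 4 window: agaagaatatGAACAggatgagaga

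The lncRNA lists held further Ythdc1 intervals, all under GENCODE transcripts of the retained intron class. An interval at exon 13 (chr5:86831477-86831700) had folds of 11.96 in control A and 14 in control B and 13.1, 17.0 and 12.2 in the H/R libraries. One at exon 11 (chr5:86827955-86830034) was listed in control A (12.3) and in the H/R libraries (7.25, 11.5 and 7.79). One at exon 10 (chr5:86826529-86826811) was listed in all H/R libraries, at 6.54, 11.3 and 7.23, and in no control library. Its p scores were 70.2, 211 and 217, and no share of lncRNA-list regions with this pattern is given. At exon 12 an interval was listed in H/R A alone (5.54). With mRNA and lncRNA lists counted together, an alternative chosen after seeing the data, Ythdc1 held 7, 6 and 5 peaks in the control libraries and 9, 9 and 8 in the H/R libraries. These groups did not overlap, as for 16.1% of all genes counted in that way, and the H/R lncRNA lists were longer (1980 to 3243 peaks) than those of control (1047 to 1594).

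Ythdc2, a YTH protein with an RNA helicase domain that is needed in meiosis, was called in H/R C alone. The peak covered 225 bases of exon 1 (chr18:44828665-44828889) with the start codon, at a fold of 11.1 and a p score of 78.4. H/R C was the longest list, and 12.7% of all genes were called in that list only.

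Among the readers without a YTH domain, Fmr1 was called in all lists. It encodes FMRP, the translational repressor whose loss causes fragile X syndrome in humans. It held 2, 1 and 1 peaks in the control lists and 3, 2 and 3 in the H/R lists. Its first exon (327 bases, chrX:68678541-68678867), most of it 5′UTR, held the single highest fold of all reader gene peaks (control B), with 146, 192 and 104 in the control libraries and 71.7, 63.3 and 108 in the H/R libraries. The exact permutation p was 0.2 for the difference between 147 ± 43.9 and 80.9 ± 23.6 (mean and SD, n = 3 each), and control C lay below H/R C. In every library this exon was at or above percentile 96.6 of its list. It had 1 DRACH site, and 98.1% of regions of similar length had at least as many.

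Fmr1 exon 14, a coding exon of 196 bases (chrX:68710584-68710779), was listed in control A (fold 10.6) and in each H/R library (6.2, 10.02 and 8.59). An interval of 287 bases at exon 3 (chrX:68691501-68691787) was listed in H/R A and C only (10.1 and 8.79). The same 2 peaks appeared in the circRNA lists, under a circular RNA that spans chrX:68688282-68695637, and no other reader gene had a circRNA peak. An lncRNA-list interval at exon 15 (chrX:68711851-68712413) was listed in all 6 libraries, with folds of 26.7, 32.6 and 25.2 for control and 14.5, 23.96 and 17.7 for H/R, every H/R value below every control value. The same held for 54.3% of the mRNA-list regions listed in all 6 libraries, and no such share is given for lncRNA-list regions. The sequence of exon 14 is shown as the Fmr1 coding exon that all H/R libraries listed. It holds 4 DRACH sites and no GGAC.
Fmr1 exon 14: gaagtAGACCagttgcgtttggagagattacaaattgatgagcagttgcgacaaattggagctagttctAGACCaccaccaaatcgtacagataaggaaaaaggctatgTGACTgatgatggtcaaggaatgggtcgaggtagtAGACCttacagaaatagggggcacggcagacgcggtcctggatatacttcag

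Prrc2a, known in mouse as a reader needed for myelination by oligodendrocytes, held no peak in control A and C, 1 in control B, 1 in H/R A and B and 2 in H/R C. The peak present in 4 lists covered the long coding exon 16 of 31 (1842 bases, chr17:35155366-35157207). Its fold was 33.4 in control B and 20.3, 17 and 17.2 in the H/R libraries, and its p score was 135 in control B and 3100, 1819 and 3100 in the H/R libraries. The exon holds 43 DRACH sites, or 23.3 per kb, against a median of 20.5 per kb for regions of similar length. A window at the site nearest its middle (chr17:35156305-35156329, minus strand) reads as follows.
Prrc2a exon 16 window: tggccccctcTGACAaggaagcccc
The first exon of Prrc2a was listed in H/R C only (fold 4.33, the lowest of any reader gene peak).

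Igf2bp2, an mRNA-stabilising reader, held 1 peak in control A, none in control B and C, and 2, 1 and 3 in the H/R libraries. The recurrent interval of 78 bases (chr16:22121197-22121274) had a fold of 25.5 in control A and 14.5, 19.4 and 11.7 in the H/R group. It lies in an intron of the RefSeq transcript and on an exon of GENCODE transcripts of the processed transcript class, and it holds no DRACH site. Exon 1 with the start codon (514 bases, chr16:22162786-22163299) was listed in H/R A and C (9.52 and 14.3), and exon 4 in H/R C (5.63).

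Elavl1 encodes HuR, which binds AU-rich elements and stabilises mRNAs. Its only peak covered exon 1 (215 bases, chr8:4324886-4325100) in H/R C, at a fold of 6.23 and a p score of 50.02, the edge of the list. Hnrnpa2b1, a nuclear reader of pri-miRNAs, was the only reader gene with peaks in control libraries alone, exon 1 in control A (fold 9.73) and exon 9 in control C (fold 9.34). These were weak peaks for their lists, at percentiles 3.74 and 0.203.

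Of the 26 reader gene regions, 10 were listed in all 6 libraries (22% of all regions were) and 8 in a single library (34.9% of all regions), of which 4 in H/R C. Without H/R C there were 22 regions. By the position of the centre on the RefSeq transcript, 11 regions lay in coding sequence, 7 in the 5′UTR, 5 within 100 bases of the start codon, 2 in the 3′UTR and none within 100 bases of the stop codon. Over 24620 regions of all genes the shares were 56.3% coding, 8.26% 5′UTR, 13.2% start codon, 16.2% 3′UTR and 6.14% stop codon. The start codon itself lay in 7 reader gene regions and the stop codon in 2, and the long exons of the YTHDF genes ended 24 to 27 bases from the end of the stop codon. In the mRNA lists 9 of the 10 reader genes had a peak on the first exon of the listed transcript in at least 1 library, against 48.3% of genes with a multi-exon model, and the gene without was Ythdf2. For Elavl1, Hnrnpa2b1, Prrc2a and Ythdc2 this rested on 1 library each, and among genes called in all lists the numbers were 4 of 5 reader genes and 60.3% of all such genes. The region of highest summed p score was the longest internal exon in 5 of the 9 reader genes with a model for that region, namely the YTHDF genes, Ythdc1 and Prrc2a, against 18.8% of 7684 genes. DRACH density pooled over bases was similar in the reader gene regions and in all regions. It was 19.6 sites per kb over 25 regions and 20.2 per kb over 24876 regions of all genes, and GGAC stood at 5.47 and 4.40 per kb. GGAC was counted whatever base followed, so GGACG, which is outside DRACH, is included. Exon 1 of Fmr1 held 3 GGAC and 1 DRACH site, and exon 1 of Ythdf3 held 4 and 1. The GGAC values are therefore not counts of consensus sites. At least 1 DRACH site lay in 84% of the reader gene regions and 93.8% of all regions, and GGAC in 76% and 66.1%.

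**Figure D4:**
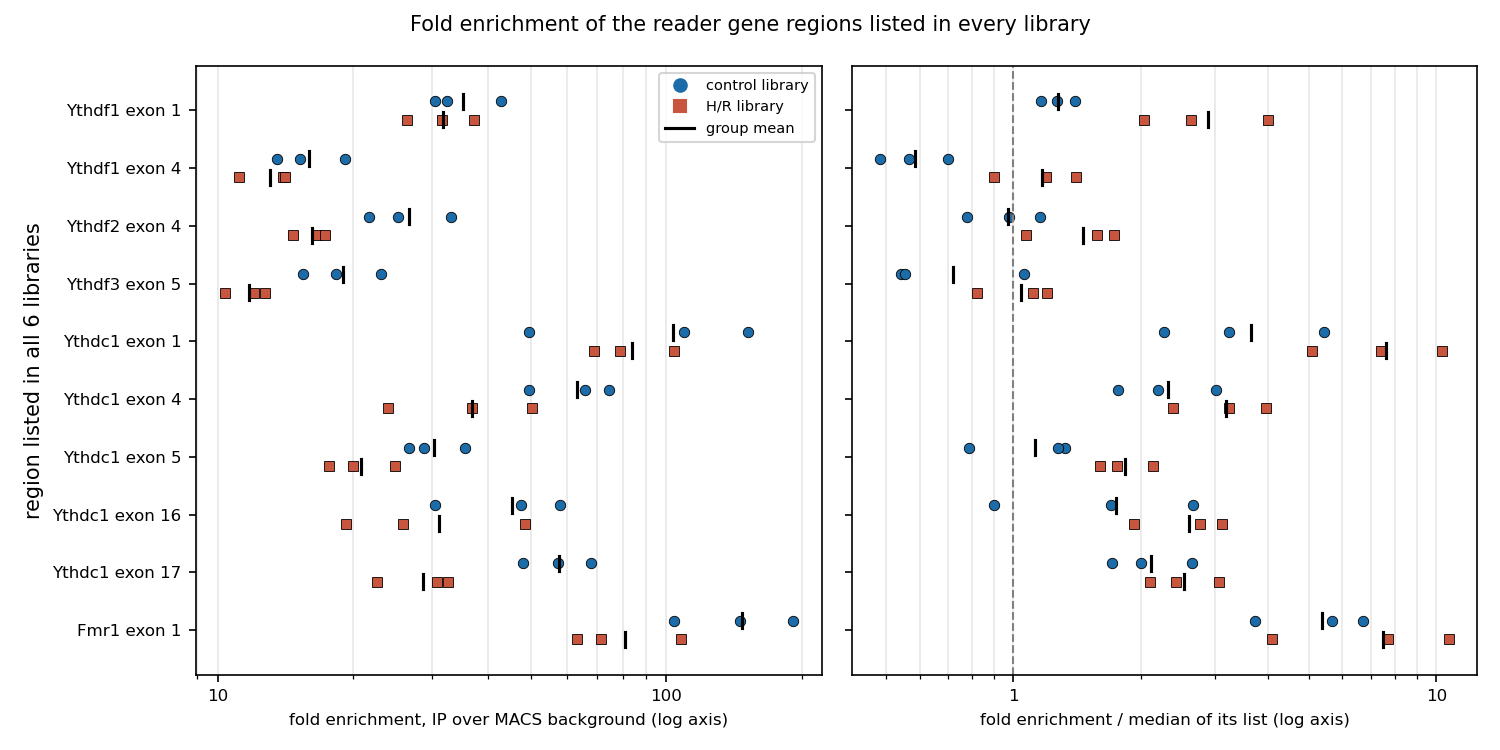
Each row is a reader gene region listed in every library, with control libraries as blue circles, H/R libraries as red squares and group means as black lines, on log axes. The left panel gives the fold enrichment and the right panel the fold divided by the median of its list (dashed line at 1). H/R values lie below all control values in 4 rows on the left and in none on the right.

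For the 10 regions present in all lists, the H/R fold was lower in every library for 4 and higher for none, against 54.3% and 0.168% of the 5950 such regions of all genes. Relative to the list median it was higher in every H/R library for 3 (both Ythdf1 regions and Ythdc1 exon 5) and lower for none, against 31.8% and 0.538%. The p score was higher in every H/R library for 6 and lower for none, against 53.1% and 0.084%. The direction of a fold change in the reader genes therefore depended on whether the list's own median was taken out. Of the 94 reader gene peaks, 32 had a p score at or above 3100, and 1 had a false discovery rate of 5% or less as deposited, the peak on Ythdc1 exon 4 in control C. In all lists the peaks at such a rate numbered 0 to 7. The median deposited rate of the reader gene peaks was 100% in the control lists and 38.1% in the H/R lists. Over all mRNA peaks it was 100% in each control list and 68.9% to 85.9% in the H/R lists. By this rate most listed peaks are thus not secure calls.

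In all, 25 lncRNA-list peaks lay at 4 reader genes (Fmr1, Ythdc1, Ythdf2 and Igf2bp2), in 7 regions, all assigned to retained intron transcripts of the same gene. Retained intron transcripts took 34.98% to 38.4% of each lncRNA list, and 16.02% of all genes had an lncRNA-list peak under their own symbol. The retained intron share is over whole lists, in which 48.9% to 53.0% of peaks carried the symbol of an mRNA-list gene. No share is given for those peaks alone. The mRNA and lncRNA lists of a library shared no peak identifier, so a gene's marked exons can be split between them. None of the mRNA peaks at reader gene loci carried another gene's symbol.

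Among 39 other genes of the m6A pathway, 28 were named in the mRNA lists. Of these, 3 had more peaks in every H/R list than in every control list, Rbm15b, Pcif1 and Prrc2c, and none had fewer, where 14.8% of all genes had more. Rbm15b, which guides the methyltransferase complex, and Pcif1, which methylates the cap-adjacent adenosine, each had 1 peak in each H/R list and none in a control list. Prrc2c, a relative of Prrc2a, held 4, 4 and 3 peaks in the control lists and 11, 7 and 13 in the H/R lists. By bases under peaks, Mettl14 and Wtap of the writer complex were also higher in every H/R list, as were 16.3% of all genes. The fold of the strongest peak was lower in every H/R list for Eif3a, Prrc2b, Prrc2c, Rbm15 and Virma. The same was true of 53% of the 3966 genes called in all lists. Of the writer complex 7 of 8 genes were named and 1 was higher in peak number, of the other methyltransferases 4 of 4 and 1, and of the erasers 2 of 2 and none. Of 17 further proposed readers and relatives 12 were named and 1 was higher, and of 8 effectors of YTH proteins 3 were named and none was higher. By the distance of log2(peak number + 1) over the 6 lists, the genes most like Ythdc1 were Arid1a, Cdc5l and Fam133b. Each had 6, 5 and 5 peaks in the control lists and 6, 6 and 5 in the H/R lists, a distance of 0.31 that 5 genes shared.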

How the data were processed

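Per the submitters' processing notes, cutadapt 1.9.3 trimmed the reads, HISAT2 2.0.4 aligned them and the build was mm10. Peaks were called by the authors with MACS in each library separately (IP over input, no pooling), and their own program kept and annotated the parts on exons. The deposited p score is 10 times -log10 of the MACS p-value. The deposited fold enrichment is a ratio to the MACS background, and the false discovery rate was deposited as a percent. Replicates were not said to be separate cultures, so p-values measure only the spread between these samples.

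A gene's peaks were those with its symbol in an mRNA list. Numbers, bases and folds were compared by a 2-sided exact permutation test over libraries, with Benjamini-Hochberg adjustment over all genes, in Python 3.11.15 with numpy 2.4.6 and pandas 2.3.3, checked on simulated data. Regions were merged at an overlap of 1 bp. Exons came from RefSeq (GRCm38.p6) and GENCODE vM21, and no peak lay past a chromosome end. UCSC transcripts had no model here. Of the pathway genes, Virma was matched by its older name, 1110037F02Rik. MAFFT 7.526 aligned the paralogs. All 10 reader genes were named, as were pathway genes without overlap between groups in peak number and the 3 genes nearest to the reader gene with most peaks. The reader genes and the other lists were chosen with earlier results of these data known. Alternatives were lists of equal length, a fold of at least 10, a p score of at least 100, peaks assigned by exon overlap, each library left out, and, chosen after seeing the data, mRNA and lncRNA lists together and folds over the list median. The motif counts of the reader genes leave out the Ythdc2 region, on chromosome 18. No such exclusion was set for the counts over all regions.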

Additional observations from a re-analysis of the deposited data

How the results depend on the processing

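The number of reader genes called in all lists was 5 under every alternative run. No reader gene had more peaks, or more bases under peaks, in every H/R library in the full lists. With p scores of at least 100 this count became 1 for peaks and 1 for bases, Fmr1 in both, and with mRNA and lncRNA lists together it became 1 for peaks, Ythdc1. Leaving out each library in turn gave 0 to 3 reader genes for peaks, 0 to 3 for bases and 0 to 2 called in 1 group only. The highest counts came without control A (Ythdf2, Fmr1 and Igf2bp2) and, for calls in 1 group only, without control B (Prrc2a and Hnrnpa2b1). Without control B Prrc2a had more peaks and bases, and Hnrnpa2b1 fewer, in every H/R library, and without H/R B Fmr1 and Igf2bp2 had more. The count of reader genes whose strongest peak had a lower fold in every H/R library was 2 (Ythdf2 and Ythdf3), 0 with folds over the list median, and 2 to 4 when a library was left out, with Ythdf1 and Fmr1 added without control C and Fmr1 without H/R C. The count with a higher fold in every H/R library was 0, and 1 without control B or without H/R A (Ythdc1). It was 2 with folds over the list median (Ythdf1 and Ythdc1), a count with no share over all genes beside it. The Ythdc1 entries compared exon 4 of the control lists with exon 1 of the H/R lists, and neither exon by itself was higher. The mRNA and lncRNA lists together added Fmr1 to the count with a lower fold. There the strongest Fmr1 peak in H/R C became the lncRNA-list interval at exon 15 (fold 17.7), while the other libraries kept exon 1. Fmr1 exon 1 itself overlapped between groups. The H/R lists called a mean of 1.33 more reader genes than the control lists, 0.333 more with lists of equal length, 0.667 with p scores of at least 100, 1.67 with folds of at least 10, and 0.667 to 1.67 when a library was left out. With folds of at least 10 the control lists called 6, 6 and 5 reader genes and the H/R lists 7, 7 and 8. These did not overlap, unlike the counts of the full lists, and no share over all genes is given for that setting. Lists of equal length gave 17 merged regions in place of 26. No paired analysis was possible because the letters of the peak lists carry no replicate number of the labels.

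Limits are that the lists give no read numbers, that H/R lists were longer and their median folds lower for all genes, and that 3 against 3 libraries cannot give an exact permutation p under 0.1. An interval is the exon part of a peak, so its ends do not place a methylated base. A gene without a listed peak had none past the caller's threshold, which is not a measure of no methylation.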
